A study of Mus musculus with 17 samples.

Results

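Prostate tumours that arise in mice carrying a deletion of exon 3 of Ctnnb1, the gene of beta-catenin, were compared with wild-type prostate by RNA sequencing. The 6 libraries of these 2 groups were taken by their labels from the 17 samples of the series. All come from C57BL/6 mice, the wild-type tissue (libraries 1, 2 and 3) at 12 months and the tumours (genotype Ctnnb1pc(ex3)delta/+, libraries 13, 14 and 15) at about 12 months. The labels do not name the Cre line that deleted the exon. They do not say whether the libraries of a group came from separate animals, so the p-values measure the spread between these libraries, which may be technical. The deposited values are whole numbers that behave like gene counts divided by a size factor for each library and rounded, which the labels do not state, and every member of this file set was used: 13996 features were tested. Values of a gene are given in the order of wild-type libraries 1, 2 and 3 and tumour libraries 13, 14 and 15, and for every gene named here with its values as having risen or fallen these 2 sets do not overlap, as was the case for 71.4% of all genes tested. The values in brackets are differences of the mean log2(value + 1), tumours minus wild type, with the standard error (SE) of limma's moderated test on 3 against 3 libraries. On this scale the change of a gene with low values is understated, and where a group reads 3 or less its size depends on the 1 that was added. A gene was called when its Benjamini-Hochberg adjusted p was under 0.05.

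Beta-catenin links cadherins to the cytoskeleton and, in the nucleus, acts with the DNA-binding proteins of the TCF and LEF family. Exon 3 encodes the serines and threonines whose phosphorylation marks the protein for destruction, and a protein without them accumulates. The adult prostate is a gland of luminal and basal epithelium wrapped in smooth muscle and supplied by autonomic and sensory nerves. Bulk libraries hold RNA of all these cells, and fewer cells of a type and less RNA per cell cannot be told apart in them.

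Ctnnb1 itself read 18785, 18850 and 18320 in the wild-type libraries and 25993, 26125 and 26930 in the tumours (log2 change 0.50, SE 0.06, adjusted p = 7.6e-04). A total over the gene cannot show whether exon 3 is missing, so this value does not check the labels. In all, 8965 genes were called (64.1% of those tested), 4461 higher (31.9%) and 4504 lower (32.2%) in the tumours, and these shares are the background against which every count below is read. The values of the tumour libraries sum to 33903149 to 35120175 and those of the wild-type libraries to 45675083 to 47248750. When all libraries were scaled to equal totals, the median of all genes moved from 0.00 to 0.49 and the split became 8181 higher and 2353 lower; where that scaling turns the direction of a list, it is said beside it. The labelled tissue was checked by its markers. Of 10 luminal prostate markers 6 fell and 3 rose, and all 10 smooth muscle markers fell, their summed value being 162884 to 206259 in wild-type prostate and 2443 to 4928 in the tumours. All 8 seminal vesicle markers fell, from sums of 482444 to 4714049 to sums of 212 to 5165. Skeletal muscle markers summed to 170652, 48761 and 10462 in wild-type libraries 1 to 3 and to 81, 67 and 11343 in tumour libraries 13 to 15, so tumour library 15 lies within the wild-type range for that tissue.

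**Figure D1:**
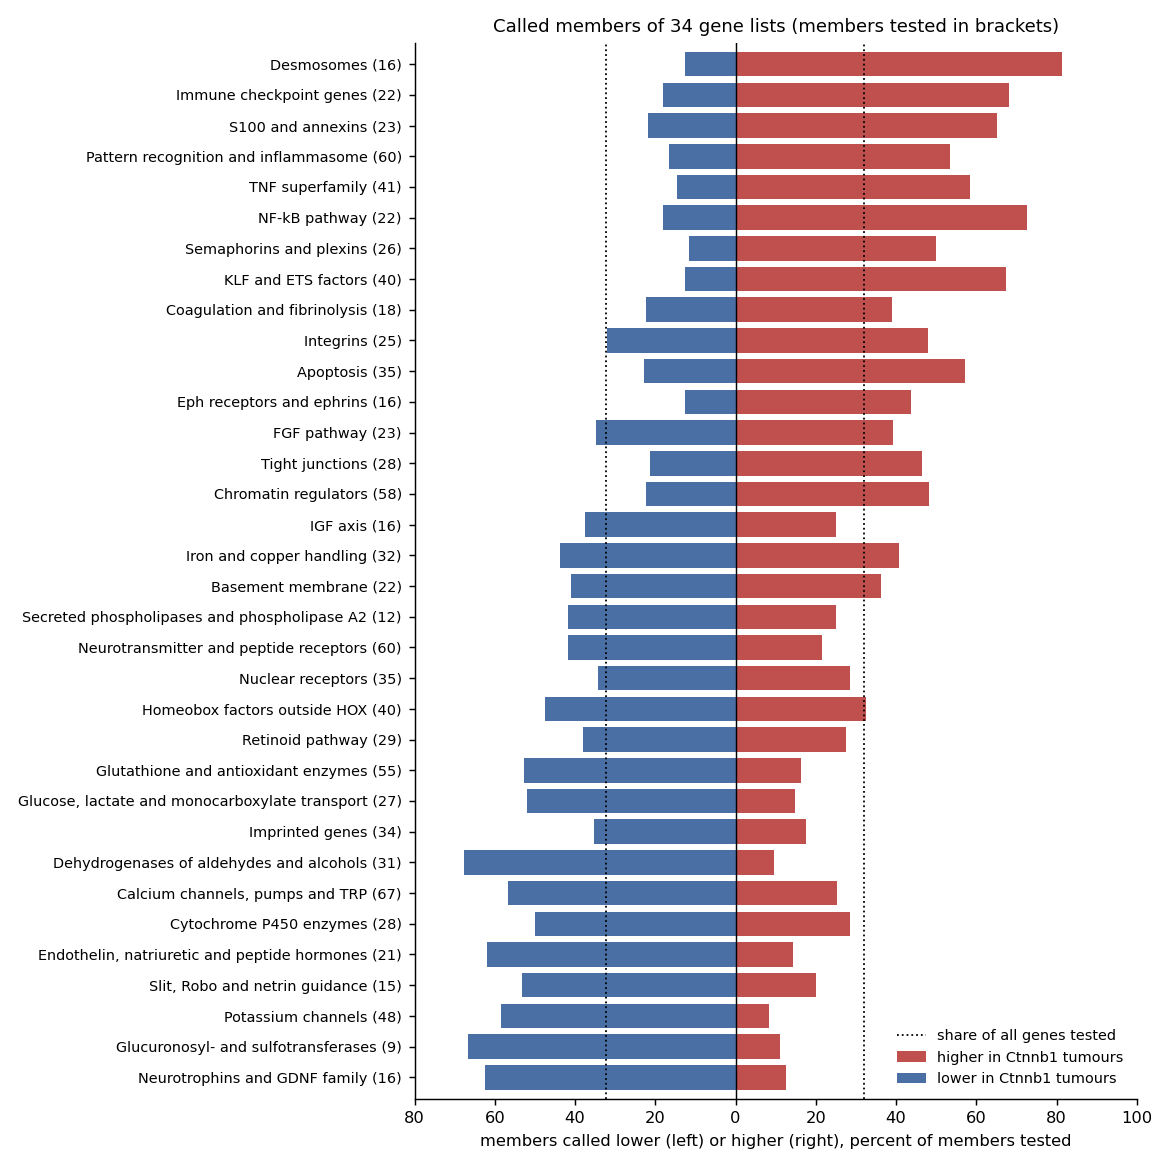
Bars give the percent of tested members of each of 34 gene lists that were called lower (blue, left) or higher (red, right) in the 3 Ctnnb1 tumours than in the 3 wild-type prostates, with the number tested in brackets and lists ordered by median log2 change. Dotted lines mark the shares over all genes tested, 32.2% lower and 31.9% higher; desmosome, NF-kB and KLF and ETS genes lie well to the right and neurotrophin, conjugation enzyme and potassium channel genes well to the left.

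The features with the largest rise in the file set encode alpha-defensins, small cationic peptides that kill bacteria and that Paneth cells of the small intestine store in their granules. They were singled out after their values were seen. RefSeq assigns 14 features of the file set to alpha-defensin genes; 13 of them were called higher in the tumours and 1 lower. RefSeq names 40 alpha-defensin genes and pseudogenes, and 10 of the 14 features are missing from the files of another genotype. As a gene low in wild-type prostate is listed only where a tumour group is high, the count of 13 follows in part from the listing and is a description. Of these 13, 9 were listed at 0 in all 3 wild-type libraries, and the highest wild-type value of any was 4. The features lie among near-identical copies on chromosome 8, reads can be shared between copies, and 4 of the 14 carry a name that another feature also has, so the value of any single copy is uncertain. The 13 features together summed to 3, 4 and 9 in the wild-type libraries and to 26557, 15468 and 10179 in the tumours. To show what the copies have in common upstream of their starts, 3 promoters of features that rose and 1 of a copy that the file set does not list are printed from RefSeq (GRCm38.p6), as the 250 bases before the annotated start, 5′ to 3′ on the strand of the gene. Capitals mark ATCAAAG, the core of the sequence that TCF and LEF factors bind, on either strand.
Defa22 (chr8:21162027-21162276, plus strand): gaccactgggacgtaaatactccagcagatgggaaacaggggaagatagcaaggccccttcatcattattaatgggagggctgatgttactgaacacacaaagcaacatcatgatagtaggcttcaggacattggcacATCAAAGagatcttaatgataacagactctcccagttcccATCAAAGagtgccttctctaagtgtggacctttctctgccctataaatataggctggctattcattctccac
Defa37 (chr8:21565136-21565385, plus strand): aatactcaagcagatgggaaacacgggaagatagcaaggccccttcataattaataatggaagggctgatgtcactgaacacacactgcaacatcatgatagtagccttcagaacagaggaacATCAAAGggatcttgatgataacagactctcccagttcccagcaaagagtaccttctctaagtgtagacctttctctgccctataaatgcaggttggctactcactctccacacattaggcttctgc
Defa30 (chr8:21134400-21134649, plus strand): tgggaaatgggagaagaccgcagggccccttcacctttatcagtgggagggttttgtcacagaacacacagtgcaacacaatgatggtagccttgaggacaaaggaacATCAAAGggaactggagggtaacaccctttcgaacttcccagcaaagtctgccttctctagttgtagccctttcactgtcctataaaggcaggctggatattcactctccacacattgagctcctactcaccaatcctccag
Defa38 (chr8:21096051-21096300, minus strand): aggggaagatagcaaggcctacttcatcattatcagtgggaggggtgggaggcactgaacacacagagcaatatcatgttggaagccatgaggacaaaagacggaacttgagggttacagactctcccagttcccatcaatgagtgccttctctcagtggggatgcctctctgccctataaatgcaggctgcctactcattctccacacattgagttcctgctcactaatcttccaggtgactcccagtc
ATCAAAG or its reverse complement CTTTGAT stands in 13 of the 16 alpha-defensin promoters that the RefSeq table holds, 9 of them with 2 or more copies, and in 1053 of all 32851 promoters (3.21%). Defa38, Defa42 and Defa43 lack it. The file set lists none of these, and it also does not list Defa23, Defa28 and Defa31, which hold the motif. The copies descend from common ancestors and are no independent count: the windows of Defa22 and Defa21 are the same at all 250 positions, and that of Defa20 differs from Defa22 at 5. A match of these letters is a description of the sequence and not of binding.

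The highest values belonged to Defa33, listed in the files as Gm21002, which was at 0 in every wild-type library and read 7612, 3812 and 3078 in tumour libraries 13, 14 and 15. Defa22 was also listed at 0 throughout wild-type prostate and read 2325, 1661 and 1128 in the tumours. Defa21, with the same upstream window, read 1838, 1409 and 954 there against 0 in wild type. These 3 features ranked the tumours in the same order, and library 15 held the lowest tumour value of all 13 higher features. The feature shared by Defa36 and Defa37, whose windows hold 1 copy of the motif, read 3732, 1711 and 1232 in the tumours and 0 in wild type. Defa5 read 636, 509 and 246. Defa30, the last of the printed sequences that belongs to a feature of the set, was lower at 73, 41 and 16. No fold is given for features listed at 0 in a whole group. Their adjusted p by limma ran from 1.1e-05 for Defa33 to 8.4e-04 for Defa30. All 13 higher features kept their call when any of the 6 libraries was left out. As the features were picked by their values and are listed through groups where they are high, these p-values and calls are a description too. The exception in the family was Defa39 (listed as AY761184), which fell from 99, 106 and 114 to 29, 64 and 24 (log2 change -1.55, SE 0.39).

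**Figure D2:**
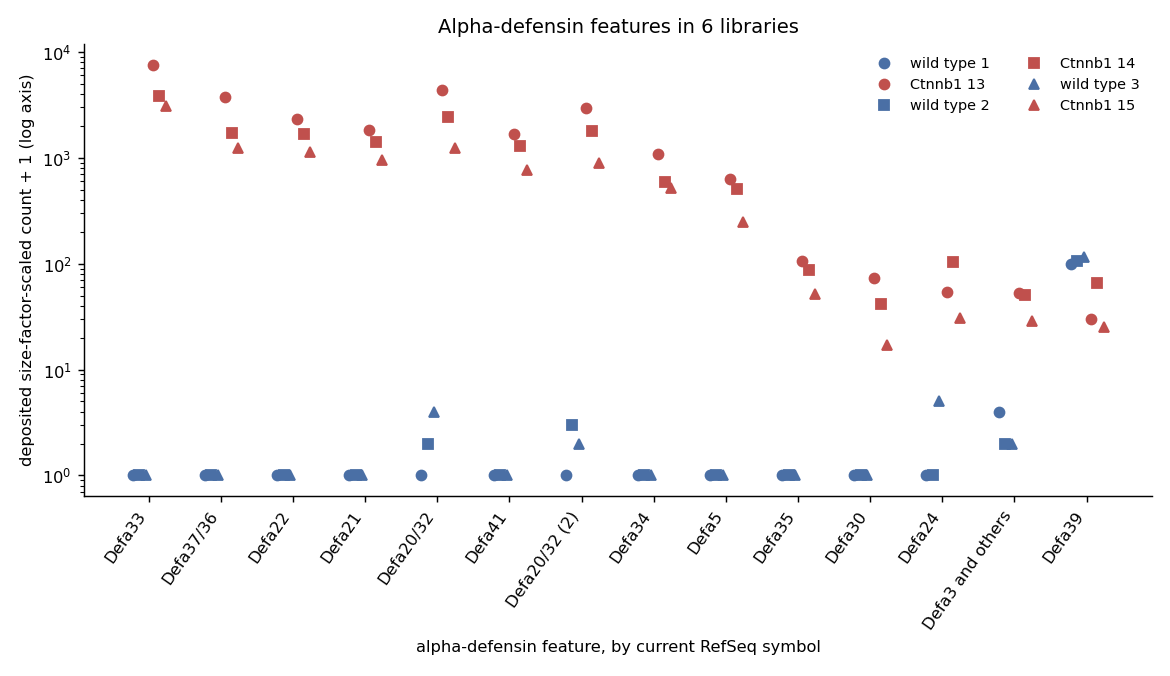
Each point is the deposited value plus 1 (log axis) of 1 alpha-defensin feature in 1 library, blue for wild-type prostate and red for Ctnnb1 tumours, with the marker shape giving the library. In 13 features every tumour lies above every wild-type library, which sit at 0 to 4, and in Defa39 every tumour lies below.

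Other defensins and other genes of Paneth and intestinal cells, also chosen after their values were seen, did not move as a block. Defb1, a beta-defensin of many epithelia, read 10329, 10153 and 11186 in wild-type prostate and 10491, 11574 and 8659 in the tumours and was not called, though with equal totals it was called higher (log2 change 0.43). Defb50 and Defb42 fell, with log2 changes of -1.19 (SE 0.29) and -3.91 (SE 0.55). Lyz1, the lysozyme of Paneth cells, read 54, 113 and 74 and 12, 21 and 59 and was not called. Mmp7, the protease that activates mouse alpha-defensins, was already high in wild-type prostate at 52114, 55332 and 27474 and rose to 107601, 77018 and 84989 (log2 change 1.05, SE 0.29). The call of Mmp7 was lost without tumour library 13. Villin (Vil1), the actin bundler of brush borders, rose from 13, 17 and 27 to 5275, 1806 and 3097 (log2 change 7.33, SE 0.43). Cdh17, the liver and intestine cadherin, rose from 73, 7 and 22 to 2179, 2345 and 1136 (log2 change 6.23, SE 0.78). The stem cell gene Lgr5 rose from 898, 842 and 669 to 2962, 2838 and 3174 (log2 change 1.91, SE 0.12), whereas Olfm4, a marker of human intestinal stem cells, read 1630, 905 and 676 and 257, 78 and 383 (log2 change -2.33, SE 0.62), a call that was lost without wild-type library 1.

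Of the 223 tested genes that this file set lists and the files of another genotype of the series do not, 168 (75.3%) were called higher. None was called lower by limma, and 1 was lower at an unadjusted p under 0.05. A gene with low values in wild-type prostate enters this file set only through a group where it is higher, so this count follows from the listing and is given as a description: the median wild-type mean of these genes was 15 and the largest 130. By the rule for named genes they were led by Defa22 and Defa21 and then by Rptn and Apoc4. Repetin (Rptn), a protein of the cornified envelope, read 1, 2 and 0 in wild-type prostate and 3219, 887 and 2252 in the tumours (adjusted p = 5.4e-05). Apoc4, an apolipoprotein normally made in liver, read 3, 1 and 0 and 2022, 2307 and 1482 (log2 change 9.90, SE 0.51).

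Signals to and from nerves were mostly lower in the tumours. Of 16 tested neurotrophin and GDNF family genes, 10 fell and 2 rose, with a list median of -2.67. The receptors fell almost throughout, 8 of 11. Gfra3, the receptor subunit for artemin, fell from 60, 69 and 51 to 0, 0 and 1 (log2 change -5.59, SE 0.51). Gfra4 fell from 128, 110 and 166 to 12, 9 and 7 (log2 change -3.72, SE 0.32). Ncam1, an adhesion molecule that also binds GDNF, fell from 393, 326 and 512 to 55, 60 and 50 (log2 change -2.86, SE 0.21). Other receptors that fell, named after their values were seen, were the neurotrophin receptors Ntrk2 and Ntrk3 with log2 changes of -2.91 and -4.88, and Ret and Gfra2 with -3.57 and -2.05. Gfra1, the subunit that binds GDNF, was the 1 receptor that rose, from 296, 351 and 372 to 918, 644 and 670 (log2 change 1.12, SE 0.17). The pan-neurotrophin receptor Ngfr was not called, reading 690, 923 and 1093 and 1108, 1408 and 344 with tumour library 15 the lowest of all 6.

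The ligands went in both directions. Of 5 tested, 1 rose and 2 fell. Brain-derived neurotrophic factor (Bdnf) rose from 5, 2 and 10 to 125, 105 and 342 (log2 change 4.83, SE 0.65). Schwann cell markers fell beside these genes: 5 of 7 were called lower, the summed value of the list was 4841 to 4926 in wild-type prostate and 2290 to 3470 in the tumours, and no marker of the list was at 0 in any library. Their part in the fall of the neurotrophin receptors was not tested.

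Peptide hormones and their receptors followed the same direction. Of 21 tested genes of endothelin, natriuretic, inhibin and neuropeptide signalling 13 fell and 3 rose (median -1.26). Follistatin (Fst), which binds and blocks activins, fell from 798, 794 and 850 to 159, 159 and 201 (log2 change -2.24, SE 0.13). Inhbb, an activin subunit, rose from 163, 164 and 180 to 479, 512 and 573 (log2 change 1.62, SE 0.12). Proenkephalin (Penk), the precursor of enkephalin opioids, fell from 1566, 1867 and 1489 to 333, 391 and 216 (log2 change -2.42, SE 0.22). The stress cytokine Gdf15 fell from 1314, 819 and 928 to 101, 177 and 65 (log2 change -3.24, SE 0.37). The inhibitor and a subunit of activin moved in opposite directions. The natriuretic peptide receptors, which make cyclic GMP, parted: Npr1, for the cardiac peptides, rose from 1306, 1325 and 1274 to 4478, 4320 and 3613 (log2 change 1.66, SE 0.09), and Npr2, for C-type natriuretic peptide, fell from 776, 618 and 667 to 102, 81 and 113 (log2 change -2.79, SE 0.17).

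Of 60 tested neurotransmitter and peptide receptors 25 fell and 13 rose. These shares lie near or below those of all genes for the rises and somewhat above them for the falls. Their median of -0.18 became 0.30 with equal totals, so no direction is given for the list. Adrenergic and muscarinic receptors made up 12 of them, of which 7 fell and 2 rose. The serotonin-gated channel Htr3a fell from 267, 458 and 583 to 11, 8 and 6 (log2 change -5.51, SE 0.37). The galanin receptor Galr3 fell from 949, 916 and 873 to 235, 310 and 283 (log2 change -1.73, SE 0.12). Calcrl, the receptor for adrenomedullin and CGRP, fell from 535, 445 and 460 to 165, 178 and 144 (log2 change -1.56, SE 0.14), while its partner Ramp3 rose from 29, 30 and 21 to 119, 107 and 130 (log2 change 2.12, SE 0.24). The beta-1 adrenergic receptor Adrb1 rose from 39, 30 and 21 to 236, 147 and 221 (log2 change 2.72, SE 0.31), and P2ry6, a receptor for UDP, rose from 152, 184 and 124 to 551, 555 and 689 (log2 change 1.97, SE 0.18).

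Potassium channels were among the lists that fell most. Of 48 tested members 28 fell and 4 rose, and the median of -2.01 stayed negative at -1.54 with equal totals. Kcnk3, an acid-sensitive leak channel, fell from 6437, 3046 and 8046 to 15, 10 and 9 (log2 change -8.81, SE 0.38), with an adjusted p of 2.3e-05. Kcng1, a silent subunit that modifies other voltage-gated channels, read 692, 518 and 875 in wild-type prostate and was at 0 in tumour libraries 14 and 15 and at 1 in library 13. Both genes were low in all 3 tumours. The voltage-gated channel Kcnc4 fell as well, with a log2 change of -3.95 (SE 0.29). Against this direction the alkaline-sensitive leak channel Kcnk5 rose from 159, 157 and 141 to 963, 661 and 822 (log2 change 2.40, SE 0.16). Kcnmb2, a subunit that inactivates the large-conductance calcium-activated channel, rose from 6, 0 and 6 to 327, 208 and 235 (log2 change 6.11, SE 0.79). The pore gene of that channel, Kcnma1, was not called at 675, 628 and 623 against 594, 878 and 871. Its smooth muscle subunit Kcnmb1, named after its values were seen, fell to 39, 23 and 25 from 155, 132 and 139.

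Among calcium channels, pumps and TRP channels, 10 of 15 voltage-gated subunits fell and 3 rose, 14 of 22 genes of stores and pumps fell and 5 rose, 10 of 23 TRP and Piezo genes fell and 8 rose, and 4 of 7 ATP-gated channels fell and 1 rose. No difference between these roles was tested. Over the whole list 38 of 67 fell and 17 rose (median -0.87, and -0.39 with equal totals). P2rx1, an ATP-gated channel of smooth muscle, fell from 1103, 770 and 956 to 14, 11 and 8 (log2 change -6.31, SE 0.26). The secretory pathway calcium pump Atp2c2 fell from 962, 1179 and 1759 to 31, 25 and 32 (log2 change -5.38, SE 0.25). Mcoln2, a channel of endolysosomes, fell from 4209, 5146 and 4028 to 57, 128 and 128 (log2 change -5.49, SE 0.32), and calsequestrin (Casq2), which stores calcium in muscle, fell from 659, 489 and 412 to 29, 24 and 38 (log2 change -4.05, SE 0.26). Each of these 4 was lower in every tumour than in any wild-type library by a wide margin. Trpv3, a warmth-activated channel of keratinocytes, rose from 35, 21 and 16 to 585, 473 and 480 (log2 change 4.43, SE 0.30). The IP3 receptor Itpr3, a calcium release channel of epithelia, rose from 2332, 2895 and 2099 to 9674, 10719 and 9153 (log2 change 2.02, SE 0.13), and the mechanosensitive Piezo1 rose from 875, 691 and 771 to 2196, 1907 and 2185 (log2 change 1.43, SE 0.11). The smooth muscle markers given above fell by more than the median of either channel list, with a median of -5.77, and none was at 0 in any library. Skeletal muscle markers were called lower in 8 of 9 cases, in 0 without wild-type library 1 or tumour library 13 and in 9 without tumour library 15, and Myh1, Myh4 and Tnnc2 were at 0 in tumour libraries 13 and 14. How much of the fall of channel genes goes with these muscle markers was not tested.

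**Figure D3:**
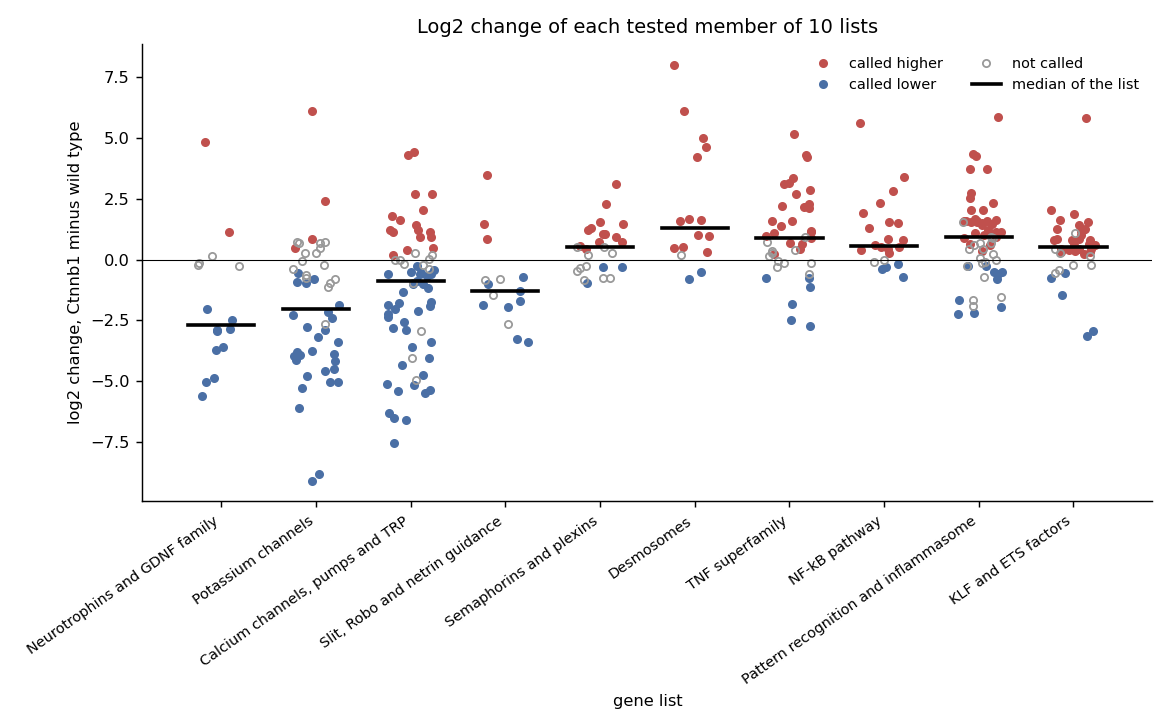
Each point is the log2 change of 1 tested gene, Ctnnb1 tumours minus wild-type prostate (3 libraries each), red where called higher, blue where called lower and open grey where not called, for 10 lists; black bars are list medians. Medians of the neurotrophin, potassium channel, calcium channel and Slit lists lie below 0 and those of the other 6 lists above it.

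Guidance molecules split by family. Of 15 tested Slit, Robo, netrin and repulsive guidance genes 8 fell and 3 rose (median -1.29); the ligands fell in 6 of 8 cases and none rose. Rgma, a repulsive guidance molecule and BMP co-receptor, fell from 551, 376 and 451 to 49, 45 and 34 (log2 change -3.40, SE 0.22). The netrin receptor Unc5a fell from 377, 184 and 285 to 22, 29 and 32 (log2 change -3.26, SE 0.31), and its relative Unc5b rose from 2532, 2908 and 4149 to 9728, 8381 and 8036 (log2 change 1.47, SE 0.18). The 2 netrin receptors moved in opposite directions. Robo1, a receptor for Slits, rose from 277, 481 and 271 to 2943, 5211 and 3138 (log2 change 3.46, SE 0.30). Slit2, one of its ligands, read 190, 172 and 175 in wild-type prostate and 42, 171 and 36 in the tumours and was not called. Tumour library 14 lay close to the wild-type values, and without it Slit2 was called lower (log2 change -2.17).

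Semaphorins and plexins leaned the other way: 13 of 26 rose and 3 fell (median 0.53), and 6 of the 8 plexins rose while none fell. The number that fell was 1 without wild-type library 1 or 2 and 5 without tumour library 14 or 15. Sema3b, a secreted semaphorin, rose from 447, 443 and 386 to 3981, 3325 and 3759 (log2 change 3.11, SE 0.10) with an adjusted p of 1.1e-05. Sema3f rose from 708, 566 and 488 to 3228, 2670 and 2730 (log2 change 2.30, SE 0.15). The plexins A1 and A3, receptors for secreted semaphorins, rose by 1.47 (SE 0.07) and 1.04 (SE 0.09) on the log2 scale. Sema4g fell from 2456, 2893 and 2195 to 1045, 1428 and 1414 (log2 change -0.96, SE 0.15). Among 16 Eph receptors and ephrins 7 rose and 2 fell, and all called ephrins, 4 of the 6 tested, rose. The number that fell was 1 without any of the wild-type libraries or without tumour library 13. Ephb3, a receptor known in intestinal crypts, rose from 218, 202 and 214 to 917, 522 and 615 (log2 change 1.65, SE 0.21). Efna3 rose from 43, 46 and 35 to 215, 199 and 129 (log2 change 2.08, SE 0.26). Ephb4, the vein-associated receptor, fell from 1713, 1271 and 1434 to 765, 610 and 889 (log2 change -0.97, SE 0.17). Of 8 endothelium markers 2 rose, 1 fell and 5 were not called. Their sums were 5427 to 6533 in wild-type prostate and 6439 to 7390 in the tumours.

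Enzymes that oxidise, conjugate and reduce small molecules fell more often than they rose, by a margin that depended on the scaling. Of 31 tested aldehyde, alcohol and aldo-keto dehydrogenases and reductases 21 fell and 3 rose (median -0.79). With equal totals 15 fell and 7 rose (median -0.30). Aldh2, the mitochondrial enzyme that clears acetaldehyde, fell from 22306, 25020 and 21687 to 2738, 3577 and 2735 (log2 change -2.94, SE 0.12). Aldose reductase (Akr1b3), which makes sorbitol from glucose, fell from 34075, 40783 and 35032 to 5257, 4520 and 5316 (log2 change -2.86, SE 0.10). Aldh1l2, a mitochondrial folate enzyme, fell from 895, 1281 and 1192 to 54, 40 and 35 (log2 change -4.68, SE 0.22). The 3 that rose were Akr1e1, from 211, 236 and 299 to 652, 675 and 539 (log2 change 1.33, SE 0.16), and the retinaldehyde dehydrogenases Aldh1a1 and Aldh1a3, which are described with the retinoid genes.

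Cytochrome P450 genes fell in 14 of 28 cases and rose in 8 (median -0.98), and with equal totals 13 fell and 11 rose (median -0.52). Cyp3a57 fell from 164, 145 and 222 to 2, 6 and 3 (log2 change -5.32, SE 0.41). Cyp46a1, which hydroxylates cholesterol, fell from 152, 186 and 181 to 26, 33 and 29 (log2 change -2.52, SE 0.21). Cyp2e1, the ethanol-inducible enzyme of liver, rose from 309, 103 and 395 to 3480, 3857 and 4550 (log2 change 4.07, SE 0.48). Cyp2b19, a keratinocyte enzyme, rose from 71, 98 and 82 to 1021, 452 and 645 (log2 change 2.99, SE 0.31), and Cyp17a1, a steroid hydroxylase and lyase, rose from low values of 11, 7 and 13 to 96, 46 and 80. Among 9 tested sulfo- and glucuronosyltransferases 6 fell and 1 rose, the latter in none of the fits without wild-type library 2 or 3 or tumour library 13 or 15. Oestrogen sulfotransferase (Sult1e1) fell from 452, 442 and 573 to 9, 13 and 23 (log2 change -5.02, SE 0.35). Sult5a1 fell from 549, 678 and 431 to 25, 24 and 27 (log2 change -4.37, SE 0.21), and Ugt1a6a fell from 157, 151 and 136 to 32, 25 and 32 (log2 change -2.29, SE 0.21). Cyp3a57 has near copies in its cluster and Ugt1a6a shares exons with its neighbours, so the values of these single genes are uncertain.

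Glutathione and antioxidant genes fell in 29 of 55 cases and rose in 9; the median of -0.49 became -0.01 with equal totals, when 18 fell and 18 rose. Of 19 glutathione S-transferases 11 fell and 1 rose, the membrane-bound Mgst1, from 974, 1305 and 1565 to 5069, 3881 and 4509 (log2 change 1.83, SE 0.18). Gstm1 fell from 8985, 8651 and 9975 to 3767, 3874 and 3005 (log2 change -1.38, SE 0.11). Chac1, which degrades glutathione, fell from 2630, 1689 and 1771 to 57, 34 and 34 (log2 change -5.59, SE 0.27). Slc7a11, the cystine importer that feeds glutathione synthesis, rose from 244, 151 and 181 to 2079, 1491 and 1640 (log2 change 3.18, SE 0.21). Prdx6, a peroxidase with phospholipase activity, fell from 280767, 283163 and 225245 to 66649, 72187 and 67801 (log2 change -1.93, SE 0.17), while thioredoxin reductase Txnrd1 rose from 2556, 2491 and 2639 to 5627, 4744 and 6970 (log2 change 1.16, SE 0.13). Genes of cystine import and thioredoxin reduction were higher while 18 of the 19 transferases were lower or not called.

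In the retinoid pathway the retinol receptor rose far more than any enzyme or nuclear receptor named here. Of 29 tested genes 8 rose and 11 fell, and the median of -0.31 turned to 0.17 with equal totals. Stra6, the membrane receptor that takes up retinol from its plasma carrier, read 363, 762 and 482 in wild-type prostate and 21045, 12263 and 17602 in the tumours, a log2 change of 5.02 (SE 0.31, adjusted p = 5.7e-05). The lowest tumour was far above the highest wild-type library. Rdh10, which makes retinaldehyde, rose from 831, 669 and 1112 to 3750, 2250 and 3364 (log2 change 1.84, SE 0.25). Aldh1a3 and Aldh1a1, which make retinoic acid from it, rose by 2.23 (SE 0.35) and 1.34 (SE 0.19). These were the 3 dehydrogenases of the list that rose, and 6 of 12 fell, among them Rdh11 from 1351, 1305 and 1455 to 626, 584 and 608 (log2 change -1.17, SE 0.07). Aldh1a7 fell from 1413, 1282 and 1737 to 524, 508 and 513 (log2 change -1.51, SE 0.12). Of the receptors, Rarg rose from 1327, 1332 and 1262 to 4258, 3221 and 3383 (log2 change 1.46, SE 0.11), and Rxrg fell from 226, 142 and 225 to 2, 2 and 6 (log2 change -5.61, SE 0.45). Cyp26b1, which degrades retinoic acid, was not called at 93, 193 and 75 against 129, 450 and 170.

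Iron and copper genes changed in 27 of 32 cases, 13 higher and 14 lower, and the median of -0.03 became 0.46 with equal totals, when 15 rose and 3 fell. The iron exporter ferroportin (Slc40a1) rose from 382, 308 and 222 to 4779, 3457 and 6889 (log2 change 4.03, SE 0.29). Ceruloplasmin (Cp), the copper ferroxidase that oxidises exported iron, rose from 2148, 1861 and 1783 to 23539, 18584 and 19543 (log2 change 3.41, SE 0.11), with an adjusted p of 1.2e-05. The transferrin receptor (Tfrc), which imports iron, rose from 831, 916 and 938 to 2896, 3184 and 3714 (log2 change 1.86, SE 0.10). The exporter, its ferroxidase and an importer were higher in all 3 tumours. Slc11a2, which carries iron across the gut and out of endosomes, fell from 4865, 6562 and 6104 to 2443, 2163 and 2688 (log2 change -1.26, SE 0.13). Steap1 fell from 216, 246 and 246 to 117, 98 and 70 (log2 change -1.33, SE 0.22). The copper pump Atp7a rose from 226, 254 and 275 to 510, 773 and 839 (log2 change 1.46, SE 0.20), and the copper chaperone Ccs fell from 1363, 1548 and 1474 to 951, 1011 and 908 (log2 change -0.61, SE 0.08), a change that was not called with equal totals. Ferroportin is also a gene of macrophages, and 7 of 9 macrophage markers rose, the sums of the list being 3180 to 4004 in wild-type prostate and 7288 to 9138 in the tumours. Of the other markers in that list, Cd163 fell from 148, 211 and 205 to 16, 89 and 21 (log2 change -2.53, SE 0.62), and Mrc1 was not called. The part of macrophages in the rise of ferroportin was not tested.

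Sugar carriers were mostly lower. Of 16 tested sugar and related sodium-coupled carriers 12 fell and none was called higher. Of 11 monocarboxylate carriers 4 rose, near the 31.9% of all genes, 2 fell and 5 were not called. No difference between these roles was tested. With equal totals the whole list of 27 held 8 higher and 11 lower. Slc16a12, a creatine carrier of this family, rose from 44, 108 and 132 to 5049, 4275 and 4113 (log2 change 5.69, SE 0.39). Slc16a10, a carrier of aromatic amino acids and thyroid hormone, rose from 1813, 2210 and 2261 to 11364, 19638 and 10653 (log2 change 2.68, SE 0.24). Slc16a9 fell from 326, 226 and 310 to 27, 29 and 27 (log2 change -3.31, SE 0.21). The insulin-responsive glucose carrier Slc2a4 fell from 1443, 675 and 575 to 21, 20 and 49 (log2 change -4.86, SE 0.47). Beside this gene of muscle and fat, adipocyte marker sums were 2052, 812 and 3981 in wild-type prostate and 679, 1079 and 570 in the tumours, and skeletal muscle marker sums are given above. Tumour library 15 exceeded wild-type library 3 for skeletal muscle markers but not for Slc2a4, and the part of either tissue was not tested. The sodium-coupled glucose carrier Slc5a1 fell from 3337, 3527 and 3165 to 885, 1224 and 1155 (log2 change -1.63, SE 0.13), and Slc2a12 fell from 1006, 952 and 1723 to 154, 135 and 165 (log2 change -2.96, SE 0.24). Among phospholipase A2 genes, 3 of 12 rose and 5 fell (median -0.18), against 5 higher and 4 lower with equal totals (median 0.31). Pla2g2f, a secreted phospholipase of skin, rose from 3, 2 and 1 to 245, 429 and 265 (log2 change 6.72, SE 0.40), and Pla2g12a fell from 4150, 4585 and 4040 to 1459, 1637 and 1183 (log2 change -1.59, SE 0.12).

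Desmosomes, the junctions that anchor keratin filaments and whose plaque protein plakoglobin is a close relative of beta-catenin, had the largest share of members that rose among the 34 lists. Of 16 tested genes 13 rose and 2 fell (median 1.31), and all 7 tested desmosomal cadherins, of 9 in the list, rose. As a gene low in wild-type prostate is listed only where a tumour group is high, these counts follow in part from the listing. They and the rank among the lists are a description. Dsg4, a cadherin of hair and upper epidermis, was listed at 0 in every wild-type library and read 359, 127 and 364 in the tumours. Dsg1c rose from 14, 7 and 18 to 480, 317 and 487 (SE 0.38 on the log2 scale, adjusted p = 1.1e-04). Dsc1 rose from 29, 22 and 19 to 419, 398 and 517 (log2 change 4.21, SE 0.22). These 3 cadherins of layered epithelium were low in wild-type prostate. Dsc2, a cadherin of simple as well as layered epithelia, rose from 1111, 1411 and 1230 to 4526, 3242 and 4118 (log2 change 1.66, SE 0.14). Among plaque proteins 6 of 9 rose, and those that fell were Pkp4, from 6056, 6362 and 5716 to 4392, 3530 and 4724 (log2 change -0.53, SE 0.11), and Perp, a tetraspan protein that the list counts with them, from 5556, 5707 and 4948 to 3960, 2806 and 2737 (log2 change -0.79, SE 0.15). With equal totals neither was called lower.

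Of 28 tight junction genes 13 rose and 6 fell, the scaffold and partner genes in 11 of 15 cases and the claudins in 2 of 13. Tjp1, the scaffold ZO-1, rose from 4492, 4865 and 4487 to 10144, 11972 and 14977 (log2 change 1.40, SE 0.14). Marveld2, which seals the corners where cells meet, rose from 1228, 1214 and 1047 to 2374, 2354 and 2212 (log2 change 0.99, SE 0.08). Cldn4, a claudin of many epithelia, rose from 8581, 8605 and 6737 to 24822, 20145 and 22408 (log2 change 1.50, SE 0.13), and Cldn11 fell from 56, 57 and 54 to 5, 5 and 2 (log2 change -3.57, SE 0.42). Jam2, an adhesion molecule also of vessels, fell from 616, 480 and 543 to 164, 269 and 246 (log2 change -1.29, SE 0.21). Endothelium markers are given with the Eph receptors.

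Basement membrane genes changed in both directions, 8 of 22 higher and 9 lower, shares close to those of all genes tested. The median of -0.11 turned to 0.37 with equal totals. Of the laminin chains, Lama5, found under most epithelia, rose from 6432, 5852 and 3829 to 18634, 15419 and 19876 (log2 change 1.77, SE 0.21). Lamc1 rose from 3391, 3512 and 3249 to 4967, 5303 and 4980 (log2 change 0.59, SE 0.06). Lama2, the chain of muscle and nerve, fell from 1188, 1073 and 1056 to 182, 240 and 194 (log2 change -2.43, SE 0.13), and Lamc3 fell from 714, 796 and 676 to 20, 12 and 15 (log2 change -5.48, SE 0.23). Lama5 was higher and Lama2 lower in every tumour, but of all 11 laminin chains tested 3 rose and 6 fell. No difference between chains of epithelium and of muscle was tested. Frem1, a protein of the Fraser complex, rose from 123, 68 and 170 to 2273, 1866 and 1718 (log2 change 4.09, SE 0.32). Nephronectin (Npnt), a ligand of integrin alpha 8, rose from 540, 305 and 315 to 4512, 2820 and 4247 (log2 change 3.34, SE 0.27), while that integrin chain (Itga8) fell from 497, 443 and 507 to 113, 20 and 71 (log2 change -3.12, SE 0.59). Over 25 integrin genes 12 rose and 8 fell (5 without wild-type library 1). Itga6, the epithelial laminin receptor chain, rose from 3909, 3948 and 3235 to 13592, 15280 and 16981 (log2 change 2.05, SE 0.11). Itga2 rose from 31, 19 and 16 to 320, 165 and 587 (log2 change 3.83, SE 0.50). The leukocyte chain Itgb2 rose from 164, 162 and 166 to 643, 435 and 884 (log2 change 1.93, SE 0.25), beside the macrophage markers given above. Itga7, the laminin receptor chain of muscle, fell from 543, 549 and 527 to 81, 64 and 62 (log2 change -2.96, SE 0.15), beside the muscle markers.

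S100 proteins and annexins, small calcium binders and calcium-dependent membrane binders, rose in 15 of 23 cases and fell in 5 (median 1.02). Anxa2 rose from 3834, 3741 and 3093 to 12261, 8160 and 10864 (log2 change 1.54, SE 0.16). S100a1 rose from 1039, 676 and 676 to 2911, 2389 and 2408 (log2 change 1.71, SE 0.18), and S100a7a, a psoriasin of stressed epidermis, rose from 11, 9 and 13 to 211, 72 and 144 (log2 change 3.46, SE 0.44). Annexin A6 (Anxa6) fell from 9182, 8818 and 8236 to 4037, 3956 and 2897 (log2 change -1.28, SE 0.13). In the coagulation list 7 of 18 rose and 4 fell, with 4 that rose without wild-type library 1 or 3 or without tumour library 13, and the fibrinolytic activators parted: tissue plasminogen activator (Plat) rose from 217, 224 and 266 to 3838, 2845 and 5440 (log2 change 4.05, SE 0.23), and urokinase (Plau) fell from 5180, 1213 and 6714 to 423, 310 and 538 (log2 change -3.07, SE 0.63). The urokinase receptor (Plaur) rose from 55, 61 and 80 to 533, 322 and 354 (log2 change 2.59, SE 0.25), and tissue factor (F3), which starts coagulation, rose from 164, 199 and 174 to 2292, 1132 and 1718 (adjusted p = 1.2e-04).

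**Figure D4:**
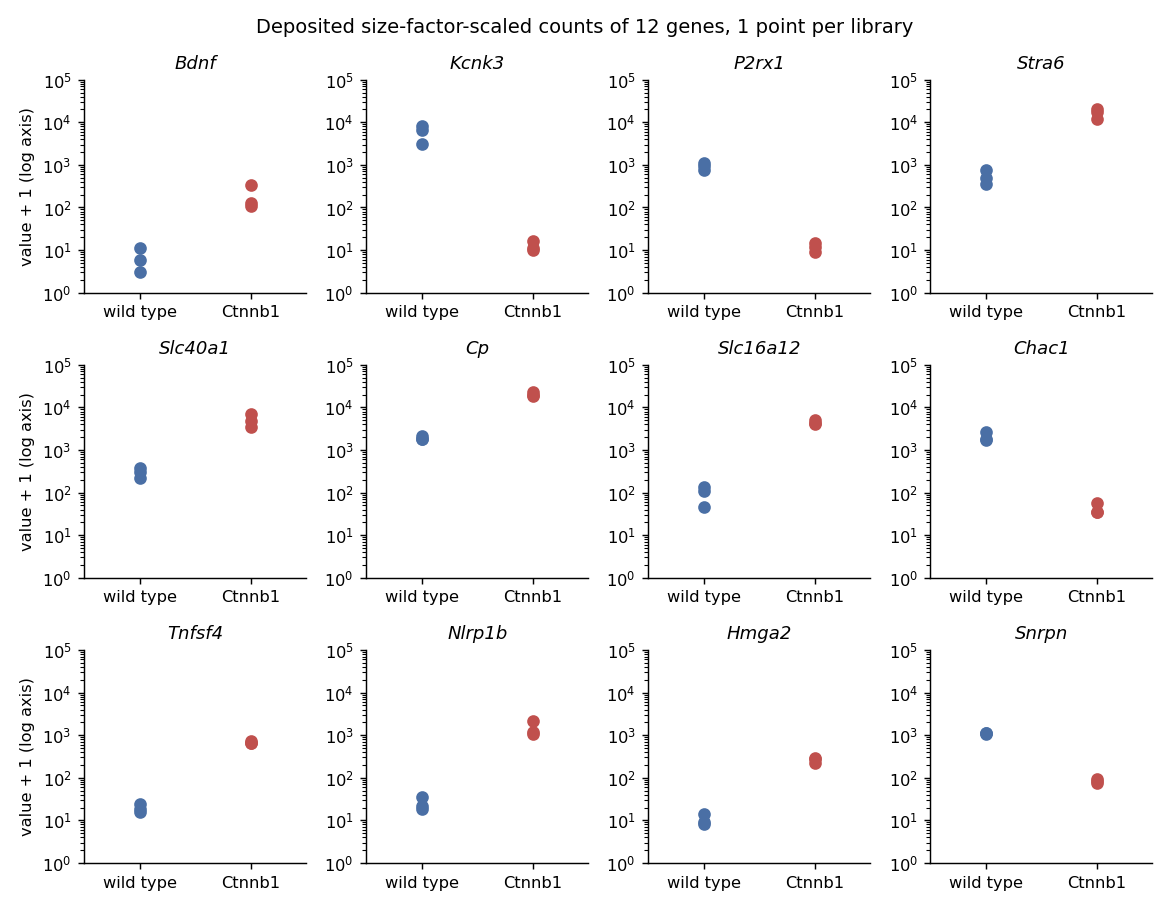
Each point is the deposited value plus 1 (log axis) of 1 gene in 1 library, blue for the 3 wild-type prostates and red for the 3 Ctnnb1 tumours. In all 12 panels the groups are apart, with Kcnk3, P2rx1, Chac1 and Snrpn lower and the other 8 genes higher in the tumours.

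Ligands and receptors of the TNF superfamily were mostly higher. Of 41 tested genes 24 rose and 6 fell (median 0.88), with 8 of 12 ligands and 13 of 22 receptors among those that rose. Tnfsf4, the co-stimulatory OX40 ligand, rose from 15, 23 and 17 to 655, 657 and 734 (log2 change 5.16, SE 0.21), with an adjusted p of 1.9e-05. Tnfrsf12a, the receptor of TWEAK, rose from 159, 296 and 172 to 2548, 1783 and 1883 (log2 change 3.34, SE 0.26), while TWEAK itself (Tnfsf12) fell from 618, 578 and 571 to 341, 338 and 369 (log2 change -0.75, SE 0.09). Tnfrsf18, the GITR receptor, rose from 60, 51 and 54 to 285, 239 and 252 (log2 change 2.21, SE 0.17). Traf4, an adaptor of epithelia, rose from 479, 404 and 486 to 2233, 2111 and 1694 (log2 change 2.13, SE 0.13). Each of these reached similar values in the 3 tumours. The death receptor Fas fell from 930, 770 and 808 to 222, 244 and 239 (log2 change -1.82, SE 0.11). Ectodysplasin (Eda), which patterns hair and teeth, fell from 158, 168 and 159 to 21, 26 and 25 (log2 change -2.71, SE 0.21), and the adaptor Traf1 fell from 1793, 1950 and 1972 to 451, 228 and 368 (log2 change -2.50, SE 0.24). Tnf itself, named after its values were seen, rose from 15, 14 and 10 to 141, 83 and 154 (log2 change 3.15, SE 0.34).

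The NF-kB pathway rose in 16 of 22 genes and fell in 4 (median 0.55). Bcl3, a nuclear cofactor of NF-kB subunits, rose from 157, 160 and 114 to 1233, 834 and 1010 (log2 change 2.83, SE 0.20). Relb rose from 419, 386 and 386 to 1339, 982 and 1196 (log2 change 1.55, SE 0.13). Rel rose from 6, 9 and 8 to 72, 79 and 124 (log2 change 3.39, SE 0.35). Of the kinases that release NF-kB, Ikbkb rose from 2379, 2523 and 2345 to 4055, 4126 and 4602 (log2 change 0.82, SE 0.07), and Chuk fell from 3576, 3912 and 3660 to 2037, 2384 and 2418 (log2 change -0.71, SE 0.08), though with equal totals the change of Chuk was not called. Nfkb1, which encodes an NF-kB subunit, read 2019, 2341 and 2030 and 2147, 1480 and 2375 and was not called. With 1 library left out 12 to 16 rose and 2 to 3 fell, the number that fell being 2 without wild-type library 1 or tumour library 15. With equal totals 18 rose and none fell.

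Genes of the sensing of microbial and nucleic acid patterns rose in 32 of 60 cases and fell in 10 (median 0.91). Toll-like receptors rose in 9 of 11 cases and cytosolic sensors in 10 of 16. Adaptors and effectors rose in 6 of 15 cases and C-type lectins in 7 of 18, nearer the share over all genes. Nlrp1b, which forms an inflammasome, rose from 21, 35 and 17 to 2159, 1193 and 1066 (log2 change 5.85, SE 0.36). Zbp1, a sensor of Z-form nucleic acids, rose from 29, 22 and 16 to 351, 288 and 263 (log2 change 3.72, SE 0.27). Ddx58, the RNA sensor RIG-I, rose from 702, 611 and 837 to 2786, 2923 and 3078 (log2 change 2.04, SE 0.12), and the kinase Irak2 rose from 748, 641 and 706 to 2015, 1792 and 2008 (log2 change 1.47, SE 0.09). These 4 act in different sensing pathways. Clec2d, a ligand of natural killer cell receptors, fell from 5268, 5009 and 5063 to 1284, 1361 and 1365 (log2 change -1.94, SE 0.05), with an adjusted p of 1.0e-05. Nod1, a sensor of bacterial cell walls, fell from 972, 803 and 907 to 266, 284 and 290 (log2 change -1.67, SE 0.10). Immune checkpoint genes rose in 15 of 22 cases and fell in 4 (median 1.15). Tnfrsf9, the 4-1BB receptor, rose from 3, 7 and 4 to 90, 98 and 110 (log2 change 4.20, SE 0.37). Pvr, a ligand of TIGIT, rose from 356, 437 and 391 to 930, 826 and 857, and Pvrl2, another, rose from 1859, 1854 and 1901 to 4036, 3431 and 3567. Nt5e and Entpd1, which make adenosine from extracellular ATP, fell by 1.80 (SE 0.22) and 1.07 (SE 0.17).

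Markers of several leukocyte types rose beside these immune lists, and those of others did not. Beside the macrophage markers given above, 5 of 7 T and NK cell markers rose (3 without wild-type library 2 or 3 or tumour library 13 or 15), with sums of 184 to 200 in wild-type prostate and 584 to 609 in the tumours. Neutrophil markers rose in 4 of 5 cases, with sums of 62 to 76 against 170 to 516, and in 1 of 5 without tumour library 13 or 15. No marker of these 3 lists was at 0 in any library. Dendritic cell markers rose in 3 of 7 cases and fell in 1, with sums of 5246 to 5789 against 8505 to 12923. Mast cell markers fell in 4 of 5 cases, from sums of 631 to 804 to sums of 283 to 487. Of 6 B and plasma cell markers none was called higher and 1 was lower, with sums of 536 to 911 against 269 to 1055. Their part in the rise of TNF, NF-kB, sensor and checkpoint genes was not tested.

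Apoptosis genes rose in 20 of 35 cases and fell in 8 (median 0.39), and BCL2 family genes rose in 14 of 20. The number that fell was 4 without wild-type library 1 and 5 without wild-type library 3 or tumour library 13. Bcl2l1, which encodes the survival protein BCL-XL, rose from 2145, 2105 and 2184 to 6369, 5962 and 5528 (log2 change 1.47, SE 0.07). Its relative Bcl2l2 fell from 5036, 5229 and 4751 to 2965, 3055 and 2855 (log2 change -0.76, SE 0.06). Bok, a pro-apoptotic member, rose from 403, 356 and 314 to 1641, 975 and 1201 (log2 change 1.80, SE 0.20). Casp12 rose from 222, 209 and 247 to 2148, 1064 and 2321 (log2 change 2.95, SE 0.29). Promoters and inhibitors of apoptosis were both among the genes that rose.

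In the FGF pathway 9 of 23 genes rose and 8 fell (median 0.21), not far from the shares over all genes. No ligand rose and 4 of 7 fell, and 3 of 4 receptors fell and 1 rose. Of 12 feedback and target genes 8 rose and 1 fell. No difference between these roles was tested. Fgf7, a stromal growth factor for epithelium, fell from 279, 324 and 281 to 31, 52 and 25 (log2 change -3.06, SE 0.29). Fgf1 fell from 5630, 5706 and 5822 to 1753, 2419 and 1522 (log2 change -1.62, SE 0.16), and Fgfr1 fell from 1573, 1620 and 1491 to 680, 633 and 679 (log2 change -1.23, SE 0.07). The inhibitors Spred1 and Spred2 rose by 1.07 (SE 0.12) and 1.01 (SE 0.11), and Dusp6, a phosphatase of ERK, rose from 732, 582 and 586 to 1100, 1052 and 971 (log2 change 0.72, SE 0.11). In the IGF axis 4 of 16 rose and 6 fell, not far from the shares over all genes; the median of -0.02 became 0.47 with equal totals. Igfbp5, a binding protein of IGFs, fell from 27660, 24959 and 22181 to 2727, 3660 and 3080 (log2 change -2.99, SE 0.13). Igfbp3 rose from 1445, 1437 and 1274 to 3505, 4896 and 3998 (log2 change 1.56, SE 0.13). Pappa2, a protease of IGF-binding proteins, fell from 474, 454 and 733 to 17, 45 and 26 (log2 change -4.26, SE 0.38), and Igf2r, which clears IGF2, rose from 5106, 5162 and 5294 to 8403, 8429 and 8605 (log2 change 0.71, SE 0.05).

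Among transcription factors, KLF and ETS genes rose in 27 of 40 cases and fell in 5 (median 0.52). Sp6, a factor of tooth and skin epithelium that the list counts with the KLF genes, rose from 5, 12 and 8 to 657, 480 and 390 (log2 change 5.81, SE 0.36). Ets2 rose from 4055, 4286 and 3502 to 13717, 14553 and 15324 (log2 change 1.88, SE 0.09). Klf13 rose from 1829, 1969 and 1758 to 5589, 5241 and 5487 (log2 change 1.55, SE 0.06), with an adjusted p of 1.9e-05. Spdef, an ETS factor of luminal prostate cells, fell from 2749, 2809 and 2485 to 241, 609 and 287 (log2 change -2.94, SE 0.33), and Ehf, another of glandular epithelium, fell from 36992, 37745 and 32503 to 13143, 11210 and 15235 (log2 change -1.45, SE 0.13). These 2 fell beside 6 of 10 luminal prostate markers.

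Of 40 homeobox factors outside the HOX clusters 13 rose and 19 fell. Of 8 sine oculis-related, PAX and NKX genes 7 fell and none rose (median -3.16). Among 9 IRX, DLX, MSX and LHX genes 5 rose and 3 fell. Of 23 MEIS, PBX and other genes 8 rose and 9 fell. No difference between classes was tested, and the median of the whole list, -0.29, turned to 0.20 with equal totals. Dlx3, a factor of hair and placenta, rose from 44, 21 and 30 to 1082, 650 and 801 (log2 change 4.72, SE 0.31). Meis2 fell from 933, 745 and 862 to 117, 139 and 121 (log2 change -2.74, SE 0.13), and Msx1 fell from 160, 194 and 136 to 21, 19 and 18 (adjusted p = 1.2e-04). Of 35 nuclear receptors 10 rose and 12 fell, again close to the shares over all genes; that median, -0.20, also turned, to 0.28. Vdr, the vitamin D receptor, rose from 279, 254 and 315 to 653, 915 and 700 (log2 change 1.41, SE 0.16). The thyroid hormone receptor Thrb fell from 372, 382 and 374 to 56, 59 and 99 (log2 change -2.43, SE 0.24), and the mineralocorticoid receptor Nr3c2 fell from 1095, 1061 and 904 to 139, 364 and 212 (log2 change -2.20, SE 0.33).

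Chromatin regulators rose in 28 of 58 cases and fell in 13 (median 0.17). Hmga2, an architectural protein of embryonic tissue, rose from 13, 7 and 8 to 223, 278 and 284 (log2 change 4.70, SE 0.30). Ezh2, the Polycomb methyltransferase, rose from 340, 324 and 337 to 1073, 954 and 1026 (log2 change 1.60, SE 0.08). In both genes the 3 tumours lay close together. Phf19, a Polycomb partner, fell from 1524, 1866 and 1697 to 486, 356 and 448 (log2 change -1.98, SE 0.14), and Hdac9 fell from 616, 519 and 864 to 86, 64 and 88 (log2 change -3.04, SE 0.23). Of 34 imprinted genes 6 rose and 12 fell (median -0.57), a share of falls close to the 32.2% of all genes tested. With equal totals 9 rose and 10 fell (median -0.11), so no direction is given for the list. Snrpn and Ndn, paternally expressed genes of 1 cluster on chromosome 7, fell together: Snrpn from 1131, 1083 and 1122 to 75, 82 and 93 (log2 change -3.73, SE 0.12) and Ndn from 266, 313 and 266 to 22, 22 and 14 (log2 change -3.82, SE 0.25). Sgce, paternally expressed on chromosome 6, fell from 429, 340 and 389 to 41, 59 and 38 (log2 change -3.06, SE 0.22). Airn, the paternally expressed antisense transcript of Igf2r, rose from 304, 277 and 280 to 1318, 1441 and 2031 (log2 change 2.45, SE 0.17), and as Igf2r rose too, their reads cannot be told apart where the 2 overlap unless strand was used in counting. The Schwann and nerve markers given above were lower beside Snrpn, Ndn and Sgce, and their part in the fall of these genes was not tested.

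Outside all lists, and leaving out features with clone or model names such as that of Defa33, the largest rises among genes with a mean of at least 500 in the higher group were those of Defa22, Defa21, Rptn and Apoc4, given above, and of Krt73 and Gulo. Krt73, a keratin of the inner root sheath of hair, was listed at 0 in wild-type prostate and read 562, 183 and 1034. Gulo, which makes vitamin C in mice, rose from 0, 0 and 4 to 297, 1556 and 210 (log2 change 8.07, SE 0.96), with tumour library 14 well above the other 2. The largest falls were mostly those of secreted proteins. Spermine binding protein (Sbp), a major secretion of ventral prostate, fell from 532758, 416786 and 636035 to 8, 38 and 17 (log2 change -14.78, SE 0.50). Scgb2b7 and Scgb2b20, secretoglobins, read 1857, 4844 and 6371 and 777, 2554 and 9111 in wild-type prostate and were listed at 0 in every tumour. Secretoglobins form a family of similar copies, so the value of each is uncertain. Spinkl, a protease inhibitor of seminal fluid, fell from 5847, 11175 and 59559 to 1, 0 and 0 (log2 change -13.61, SE 0.84). Fam115e fell from 92366, 97816 and 73406 to 102, 44 and 149 (log2 change -9.94, SE 0.42). Crisp1, a sperm-coating protein, fell from 8470, 639 and 4669 to 6, 0 and 8 (log2 change -9.53, SE 1.19). The wild-type values of Spinkl, Scgb2b20 and Crisp1 spread widely, beside seminal vesicle marker sums of 1310438, 482444 and 4714049 in wild-type libraries 1 to 3.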

How the data were processed

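Gene expression was measured by RNA sequencing of frozen tissue (RIN above 7.3, HiSeq 2000, 90-nucleotide paired reads, per the labels' protocols). Per the submitters' processing notes the tools were DESeq2 1.14.1 in R 3.2.3, HTSeq 0.6.0, Bowtie2 2.2.6.0, FastQC 0.11.4 and TopHat2 2.1.0, and the build was GRCm38.p3. The values the authors deposited are treated as a score: whole numbers whose behaviour is that of gene counts divided by a size factor and rounded, which neither labels nor headers state. Counting reads by strand is not given in the sources used here. The set lists 15195 rows. Of these, 631 without an Entrez number were left out and 567 that repeat another row in all 9 libraries were merged, which left 13997 features, 13996 of them with a value of at least 1 in 3 libraries.

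Values were tested as log2(value + 1) with limma 3.58.1 in R 4.3.3 (moderated test with a mean-variance trend on 3 against 3 libraries, two-sided, Benjamini-Hochberg over all features). The code was tested on simulated data. For 107 features a name is shared by several features, and they were kept in the fit but out of the lists. Of 95 lists, 18 of them of markers, 34 are described in full; lists and members were chosen with earlier results of these data known. Up to 4 genes per list and direction were named by p, among called genes without overlap and with a mean of at least 50 in the higher group. To these were added up to 6 per direction in no list with a mean of at least 500 and up to 4 per direction missing from the files of another genotype. Other named genes were chosen after their values were seen. Alternatives were other pseudocounts, scalings and filters, limma without the trend and with robust fitting, all 9 libraries in 1 fit, and each library left out. Some members of the lists are not reported here by name. Promoters are the 250 bases before each start in RefSeq on GRCm38.p6.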

Additional observations from a re-analysis of the deposited data

Results flagged for a closer look

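The libraries of mice that carry the Ctnnb1 allele with a further engineered change (libraries 10, 11 and 12, from mice of 6 to 8 months against 12 months in the other 2 groups), which no comparison above uses, also held the alpha-defensins. All 13 features that were higher in the Ctnnb1 tumours were above every wild-type library in each of these 3 libraries, with single values from 4 to 10076. Their summed value was 8283 in library 10, 5096 in library 11 and 47859 in library 12, against 3, 4 and 9 in the wild-type libraries. They are given because a signal is present in libraries outside the comparison, above the level in the controls. Libraries 10, 11 and 12 belong to the same file set, so the count of 13 follows in part from the listing here too and is a description. Library 12 exceeded all 3 Ctnnb1 tumours, whose sums were 26557, 15468 and 10179. No difference between the 2 tumour groups was tested.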

How the results depend on the processing

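No paired analysis was possible because the replicate numbers of the groups (1 to 3 and 13 to 15) share no number. Of 8965 genes called, 3874 also changed by at least 1 on the log2 scale. With equal totals 8181 were higher and 2353 lower, in place of 4461 and 4504. Leaving out 1 library gave 7650 to 8857 called genes, and all the other settings gave 8179 to 10534. Over 68 counts of list members and 15 other settings, 971 of 1020 values stayed within 1.5 times the value reported, of the others 23 came from equal totals and 26 from other settings. Of 207 genes named with values, 193 kept direction and call in every setting. Genes that were not called turned direction: with equal totals Defb1 read 0.43 and was then called higher (adjusted p = 0.0080 by limma), Nfkb1 read 0.37 and Ngfr 0.36, and on leaving out 1 library Defb1 ran from -0.15 to 0.063, Nfkb1 from -0.25 to 0.088 and Ngfr from -0.52 to 0.49. The cause was not tested. With 3 libraries a group and 4 residual degrees of freedom per gene, genes with values near 0 carry the largest standard errors.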

Other observations

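The 43 gene lists not described above had medians from -1.23 to 2.21, of which 30 lay below 0 and 23 changed sign with equal totals. Those that kept a lower median included water channels and carbonic anhydrases, with 8 of 16 lower and 2 higher (median -1.23), and creatine and urea cycle genes, with 8 of 15 lower and 2 higher (median -1.19). In the first list 5 were lower without wild-type library 1 or with equal totals, and none was higher without wild-type library 2 or 3 or tumour library 13 or 15. In the second list 5 were lower without wild-type library 1 or 2, and with equal totals 7 were lower and 5 higher. Transporters of bicarbonate, protons and chloride with cations were lower in 19 of 45 cases and higher in 7 (median -0.60), but with equal totals 11 were lower and 14 higher (median -0.11), so no direction is given. DNA repair genes rose in 41 of 78 cases and fell in 8, with a median of 0.36 that became 0.84 with equal totals, when 68 rose and 3 fell. The number that fell was 4 without wild-type library 2 or 3 and 5 without wild-type library 1 or tumour library 15. Members of the Ly6 and uPAR family, small surface proteins often tethered by a lipid anchor, rose in 9 of 18 cases and fell in 3 (median 0.98).

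For several large lists of organelle genes the direction rested on the scaling. Peroxisome genes were lower in 18 of 32 cases and higher in 6, against 5 lower and 17 higher with equal totals. Autophagy and lysosome genes were lower in 36 of 79 cases and higher in 18, against 17 and 44. Heat shock proteins and their partners were lower in 32 of 66 cases and higher in 13, against 15 and 31. Proteasome genes, whose subunits are made together, were lower in 13 of 43 cases (6 without wild-type library 2 and 7 without tumour library 15) and higher in 10, and with equal totals 41 of the 43 were higher. No direction is given for these 4 lists.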
